A study of Homo sapiens with 8 samples.

Results

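The genes of cholesterol and fatty acid synthesis were followed in human prostate cancer cells that overexpressed miR-375 and in control cells. MicroRNAs such as miR-375 lower messenger RNAs that pair with the seed, a short stretch near the microRNA's 5′ end. The 38 genes were taken from the deposited count table by symbol, out of 60622 gene lines, and all 38 were found and tested. They cover the mevalonate and sterol pathway (18 genes), its control and sterol transport (5), the supply of acetyl-CoA and NADPH (4), fatty acid synthesis (2), desaturation and elongation (5) and activation to acyl-CoA (4). The 4 groups were LNCaP with miR-375 overexpression, LNCaP control, PC3 with miR-375 overexpression and PC3 control, with 2 libraries each. LNCaP is an androgen-responsive line from a lymph node metastasis and PC3 a line from a bone metastasis. LNCaP grew in medium with 10% serum and PC3 in 20% serum, per the labels' protocols, so line and serum share cannot be told apart. The labels name neither the means and duration of overexpression nor the treatment of the controls.

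Cells build cholesterol from acetyl-CoA through mevalonate and squalene, and fatty acids from acetyl-CoA through malonyl-CoA. Both routes are driven by the sterol regulatory element binding proteins (SREBPs), membrane-bound transcription factors that SCAP escorts from the endoplasmic reticulum when sterols are low and that INSIG proteins hold back when sterols are high. Prostate cancer cells are known for active fatty acid synthesis, which androgen signalling stimulates through SREBPs. The mature strand of the manipulated microRNA, as RefSeq gives it (GRCh38.p14, chr2:219001648-219001669, minus strand), is shown because every site search below starts from it, with the seed (bases 2 to 8) in capitals.
hsa-miR-375-3p: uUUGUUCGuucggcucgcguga

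The gene of miR-375 itself, MIR375, had 0 counts in all 8 libraries. Poly(A) libraries of this kind do not capture the mature microRNA, so the overexpression could not be checked here. Totals ran from 33973861 to 41890528 counts per library. Levels are given in CPM, the count divided by the library size and rescaled alike in all libraries, with sizes adjusted by the trimmed mean of M-values (TMM). Paired values are those of the first and second library of a group. Each change is a log2 fold change (miR-375 over control) with its SE. Genes that rose or fell are those for which the adjusted p of edgeR's quasi-likelihood test (Benjamini-Hochberg over 21066 tested genes) was under 0.05. Whether libraries of one group were grown as separate cultures is not stated, so p-values measure the spread between libraries, which may be technical. The lines were checked against markers of LNCaP. KLK3, which encodes prostate-specific antigen, was at 1797 and 1861 CPM with miR-375 and 2811 and 2762 CPM in controls of LNCaP, a fall of 0.61 on the log2 scale, and had 0 counts in PC3. FOLH1, which encodes prostate-specific membrane antigen, was at 851 and 855 CPM with miR-375 and 771 and 772 CPM in controls of LNCaP. In PC3 FOLH1 was at 5.45 and 5.93 CPM with miR-375 and 0.250 and 0.467 CPM in controls. The 5 PC3 markers (VIM, CAV1, FOSL1, AXL and CD44) summed to 1014 and 1002 CPM with miR-375 and 1905 and 1889 CPM in controls of PC3, and to between 32.7 and 46.7 CPM in LNCaP. Markers of both lines thus moved with miR-375. Leukocyte markers summed to at most 0.441 CPM and adipocyte markers to at most 0.899 CPM in any library. The fibroblast list reached between 371 and 392 CPM in PC3 with miR-375, against 141 to 147 CPM in the PC3 controls, nearly all of it COL1A1. Its low members rose in PC3 too, DCN with 14 and 20 counts with miR-375 and 0 counts in both controls (adjusted p = 5.07e-05), and LUM at 2.52 and 2.75 CPM with miR-375 and 0.599 and 1.25 CPM in controls (adjusted p = 7.77e-04). COL3A1 was not called in PC3. Hepatocyte markers summed to at most 6.30 CPM. In bulk RNA, fewer cells expressing a gene and less RNA per cell cannot be told apart. Genes of proliferation (MKI67, MCM4, CDK1 and TOP2A) summed to 323 and 309 CPM with miR-375 and 824 and 817 CPM in controls of LNCaP. In PC3 their sum was 370 and 380.0 CPM with miR-375 and 902 and 890.3 CPM in controls. The part of any of these marker changes in those of the lipid genes was not tested.

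With miR-375 the lipid genes changed in both directions. The supply genes ACLY, ACSS2 and ME1, the elongase gene ELOVL6 and the activation genes ACSL3 and ACSL4 fell in both lines, while FASN, the desaturase genes SCD, FADS1 and FADS2 and the sterol reductase genes TM7SF2 and DHCR7 rose in PC3, where LNCaP showed a fall (FASN, FADS1), no call (SCD, FADS2, DHCR7) or a smaller rise (TM7SF2). In LNCaP 6 of the 38 genes rose and 15 fell, in PC3 11 rose and 16 fell. The background over the 21066 genes was 13.9% higher and 18.7% lower in LNCaP (32.6% called), and 22.2% higher and 20.8% lower in PC3 (43% called). Most of the lipid genes are well counted. Of the 37 with a mean of at least 5 CPM, 56.8% were called in LNCaP and 73% in PC3, against 52.1% and 62.5% of all tested genes at that level, so the overall share of calls was near the background. By direction, 16.2% of the 37 rose and 40.5% fell in LNCaP, against 20.5% and 31.6% of all tested genes at that level. In PC3 29.7% rose and 43.2% fell, against 29.3% and 33.2%. The median change of the 38 genes was -0.07 in LNCaP and -0.14 in PC3, against 0.00 and 0.02 over all tested genes. Total-count scaling in place of TMM raised the median of all genes by 0.12 in LNCaP and 0.08 in PC3. With it the split became 10 higher and 12 lower in LNCaP and 13 higher and 11 lower in PC3. Higher calls then made up 45.5% of the member calls in LNCaP and 54.2% in PC3. Over all tested genes they made up 64.4% and 61.2%. In the main fit the shares were 28.6% and 40.7% for the members, against 42.7% and 51.7%. With DESeq2's size factors the split was 9 and 12 in LNCaP and 10 and 16 in PC3. Higher calls were then 42.9% and 38.5% of the member calls, against 50.1% in both lines over all tested genes. No called member changed direction under any of the 16 alternatives tried (0 of 21 in LNCaP and 0 of 27 in PC3).

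**Figure D1:**
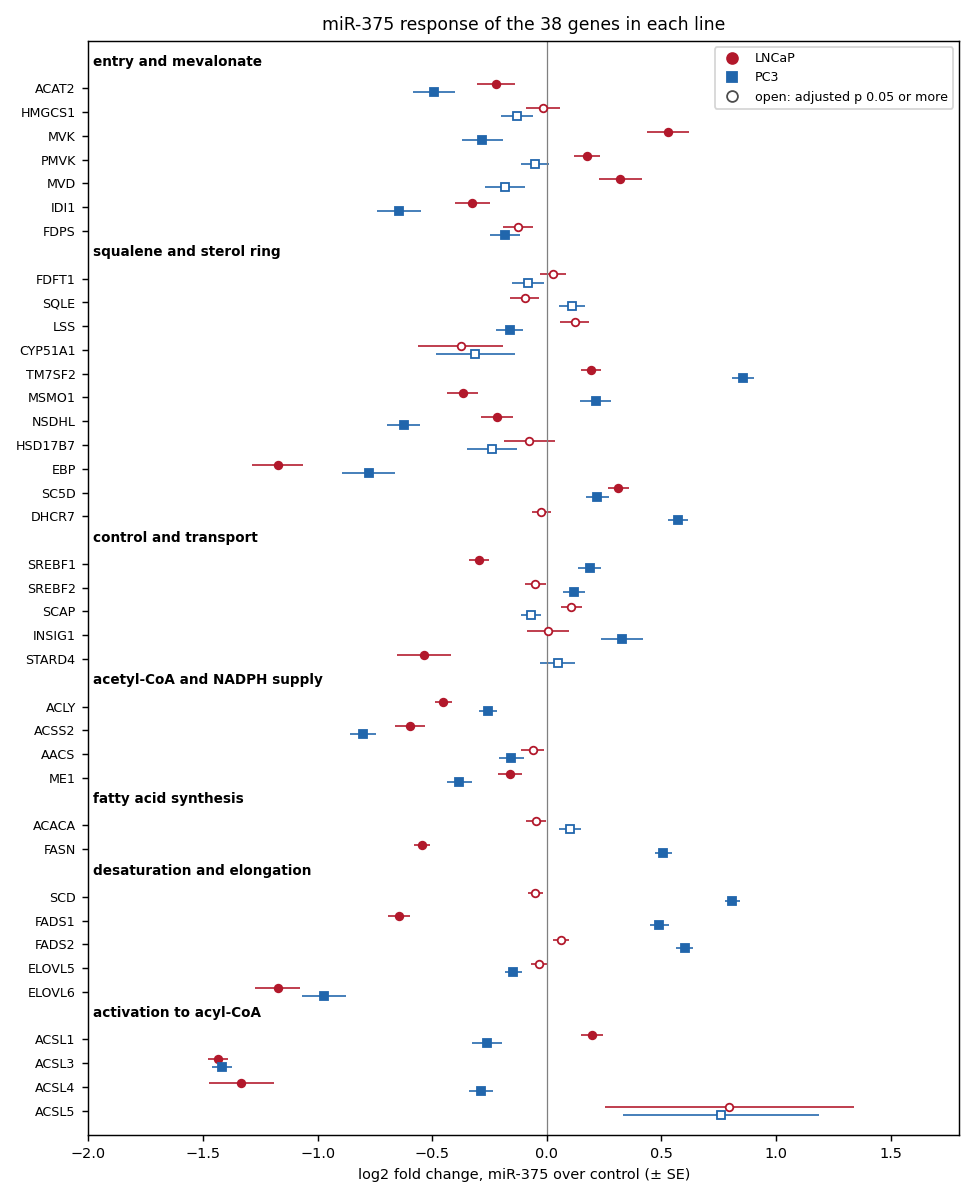
Response of the 38 genes to miR-375 (log2 fold change against control), grouped by role, in LNCaP (red circles) and PC3 (blue squares). Horizontal bars are ± SE from edgeR with 2 libraries per group, and open symbols had an adjusted p of 0.05 or more. ACSL3, ELOVL6 and EBP lie far to the left in both lines, while FASN and FADS1 lie on opposite sides of 0.

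Activation to acyl-CoA, the step that lets a free fatty acid enter membranes, storage or oxidation, held the sharpest fall. ACSL3, an acyl-CoA synthetase of the endoplasmic reticulum and lipid droplets, stood at 87.0 and 79.3 CPM in LNCaP with miR-375, against 224 and 225 in its controls. In PC3 it stood at 92.8 and 89.8 CPM with miR-375, against 241 and 247 in its controls. The groups were far apart in both lines and the controls of the lines were nearly level. The change was -1.44 ± 0.04 in LNCaP (adjusted p = 2.90e-24) and -1.42 ± 0.04 in PC3 (3.70e-25), and the difference between lines was -0.02 ± 0.06 (adjusted p = 0.901). ACSL4, which prefers arachidonic acid, was a minor transcript in LNCaP, at 1.84 and 1.94 CPM with miR-375 and 4.96 and 4.58 in controls. In PC3 it was abundant, at 100.1 and 103 CPM with miR-375 and 122 and 126 in controls. It fell in both lines, by 1.33 on the log2 scale in LNCaP and by 0.29 in PC3 (adjusted p = 8.67e-10 and 2.47e-05), and the fall in LNCaP was the steeper (difference -1.05 ± 0.15, adjusted p = 1.11e-06). ACSL1, an isoform that serves oxidation and storage, rose slightly in LNCaP (0.20 ± 0.05) and fell slightly in PC3 (-0.26 ± 0.07). Its fall in PC3 was not called with limma-voom (adjusted p = 0.0655). ACSL5 was a trace transcript in every group, at most 1.66 CPM. Its changes were wide in error and not called (0.80 ± 0.54 in LNCaP and 0.76 ± 0.43 in PC3).

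Matches to the miR-375 seed were looked for in the annotated 3′UTR of 1 transcript per gene (GENCODE 29, GRCh38). No lipid gene held a match to bases 2 to 8 (CGAACAA), which 1% of 14893 tested protein-coding genes held. The shorter match to bases 2 to 7 followed by an A (GAACAAA) was present in 7 of the 38 genes, and 14.9% of the protein-coding genes held either match. The 7 were ACSL3 (2 matches), ELOVL6 (3), ACSL4, ACSL5, IDI1, STARD4 and INSIG1. Of them 5 fell and 0 rose in LNCaP, and 4 fell and 1 rose in PC3. Of the 31 others 10 fell and 6 rose in LNCaP, and 12 fell and 10 rose in PC3. Across all protein-coding genes with a match, 37% fell in LNCaP and 37% in PC3, against 23.4% and 25.3% of those without. The 3′UTRs of ELOVL6 (5492 bases), STARD4 (3853) and ACSL3 (2985) are long, against a median of 1047 bases over the protein-coding genes, and a long 3′UTR can hold more matches of any kind. The sites of ACSL3, ELOVL6, ACSL4 and IDI1 are shown because these genes fell in both lines, that of STARD4 because it was called in LNCaP and not in PC3, and that of INSIG1 because it rose in PC3. Capitals mark the match. They are exonic, in the 3′UTR, at chr2:222942120-222942147 and chr2:222944103-222944130 (plus strand) for ACSL3, and at chr4:110051058-110051085, chr4:110049361-110049388 and chr4:110047257-110047284 (minus strand) for ELOVL6. Those of ACSL4 (chrX:109643716-109643743, minus strand), IDI1 (chr10:1040873-1040900, minus strand), STARD4 (chr5:111499319-111499346, minus strand) and INSIG1 (chr7:155310096-155310123, plus strand) are single.
ACSL3 site 1: cttatgaatcaaatcattgttGAACAAA
ACSL3 site 2: gaaaaagtttttgctgacacaGAACAAA
ELOVL6 site 1: tatcaactctaggacaagggaGAACAAA
ELOVL6 site 2: tgtgtgaatggtttgagcagtGAACAAA
ELOVL6 site 3: agaggctgtgaggagagtagaGAACAAA
ACSL4 site: taaagaaaaatatttaatgttGAACAAA
IDI1 site: atacatacttatgggaaatttGAACAAA
STARD4 site: aaaagcatcagtctgtaactaGAACAAA
INSIG1 site: tgtaaaaatgtaaaatagtatGAACAAA
A match is a description of the letters and was not tested as a binding site.

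In PC3 the elongase genes fell and the desaturase genes rose, while in LNCaP ELOVL6 and FADS1 fell and the other 3 were not called. ELOVL6, the elongase that takes palmitate to stearate, stood at 13.3 and 15.0 CPM in LNCaP with miR-375, against 31.6 and 32.3 in controls, and at 13.0 and 12.2 CPM in PC3 with miR-375, against 23.7 and 25.6 in controls. It fell in both lines, to less than 1 in 2 of its control level in LNCaP (-1.17 ± 0.10, adjusted p = 2.11e-12) and to about that level in PC3 (-0.97 ± 0.10, 1.27e-10). SCD, the stearoyl-CoA desaturase that makes oleate, stood at 464 and 453 CPM in PC3 with miR-375, against 262 and 262 in the PC3 controls, a rise of 0.81 ± 0.03 (adjusted p = 3.74e-21). In LNCaP it was 447 and 447 CPM with miR-375 and 458 and 468 in controls, and was not called (-0.05 ± 0.03, adjusted p = 0.278). The PC3 controls alone were low, and the other 3 groups lay between 447 and 468 CPM. FADS1, the delta-5 desaturase of polyunsaturated fatty acids, was at 47.3 and 47.9 CPM in LNCaP with miR-375 and 74.1 and 74.6 in controls. In PC3 the order was the reverse, at 213 and 209 CPM with miR-375 and 148 and 152 in controls. It fell in LNCaP (-0.64 ± 0.05, adjusted p = 1.03e-13) and rose in PC3 (0.49 ± 0.04, 1.22e-12). FADS2, the delta-6 desaturase encoded next to it on chromosome 11, was at 286 and 303 CPM in LNCaP with miR-375 and 285 and 279.7 in controls. That change (0.06 ± 0.04) was not called in the main fit, but FADS2 was called higher in LNCaP with DESeq2's size factors. In PC3 it was at 369 and 375.4 CPM with miR-375 and 249.1 and 242 in controls, a rise of 0.60 ± 0.04 (adjusted p = 1.95e-16). FADS1 and FADS2 are transcribed from opposite strands and share 4.79% and 4.44% of their exon bases in GENCODE 29, and without a stated strand setting that small part of their reads cannot be assigned. ELOVL5, which elongates polyunsaturated fatty acids, was the most abundant of the 38 genes per kilobase of exon in both control groups. It fell by 0.15 on the log2 scale in PC3, and its call ended with total-count scaling and without the second PC3 control (adjusted p up to 0.136).

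FASN, the multi-enzyme that makes palmitate, moved in opposite directions in the lines. It stood at 634 and 692 CPM in LNCaP with miR-375, against 945 and 988 in controls, and at 241 and 248 CPM in PC3 with miR-375, against 170.3 and 173 in controls. The groups did not overlap in either line. The change was -0.54 ± 0.04 in LNCaP (adjusted p = 8.26e-15) and 0.51 ± 0.04 in PC3 (9.24e-14), and the difference of -1.05 ± 0.05 passed the test (adjusted p = 8.63e-18). ACACA, the acetyl-CoA carboxylase that makes the malonyl-CoA used by FASN, was not called in either line (-0.05 ± 0.04 in LNCaP and 0.10 ± 0.05 in PC3).

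**Figure D2:**
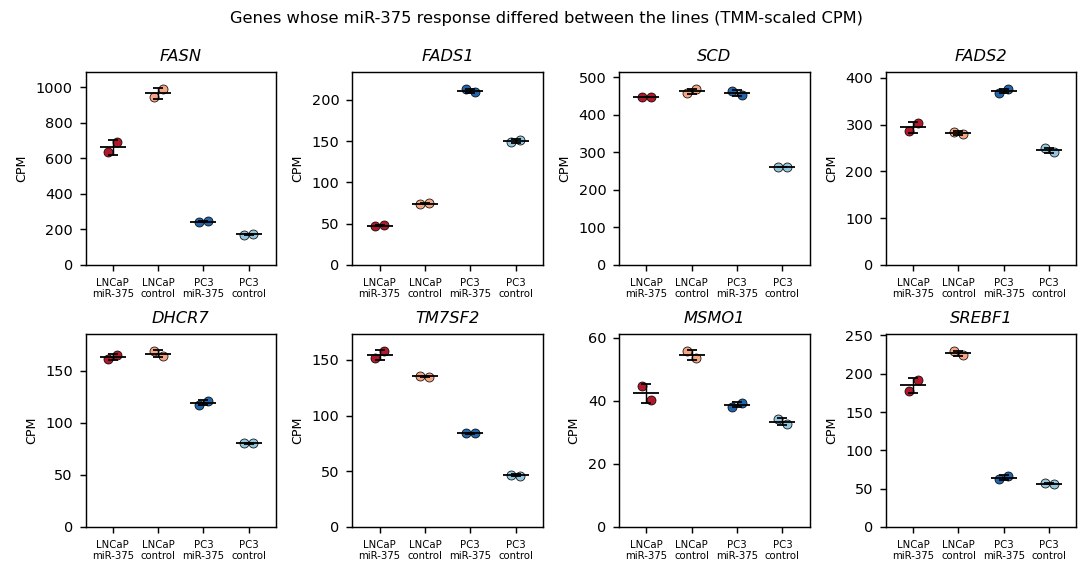
CPM (TMM-scaled) of 8 genes whose miR-375 response differed between the lines, in each of the 4 groups. Points are single libraries, horizontal marks the mean and bars ± SD (n = 2). FASN, FADS1, MSMO1 and SREBF1 are lower with miR-375 in LNCaP and higher with it in PC3, while SCD, FADS2 and DHCR7 change in PC3.

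Of the 4 genes that supply acetyl-CoA and NADPH, 0 rose, 3 fell in LNCaP and 4 fell in PC3. ACSS2, which makes acetyl-CoA from acetate, stood at 27.4 and 28.7 CPM in LNCaP with miR-375, against 42.4 and 42.5 in controls, and at 53.7 and 49.5 CPM in PC3 with miR-375, against 89.8 and 90.1 in controls. It fell by 0.60 in LNCaP and by 0.80 in PC3 on the log2 scale (adjusted p = 2.11e-09 and 3.56e-14). ACLY, which makes acetyl-CoA from citrate, fell in both lines (-0.45 ± 0.04 in LNCaP and -0.26 ± 0.04 in PC3). ME1, the malic enzyme that yields NADPH, also fell in both (-0.16 ± 0.05 and -0.38 ± 0.05), but its call in LNCaP was lost under 9 of 16 alternatives (adjusted p up to 0.651). AACS, which activates acetoacetate for lipid synthesis, fell slightly in PC3 (-0.16 ± 0.05) and was not called in LNCaP. Its PC3 call ended with total-count scaling and without either PC3 control or the second PC3 miR-375 library (adjusted p up to 0.254).

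**Figure D3:**
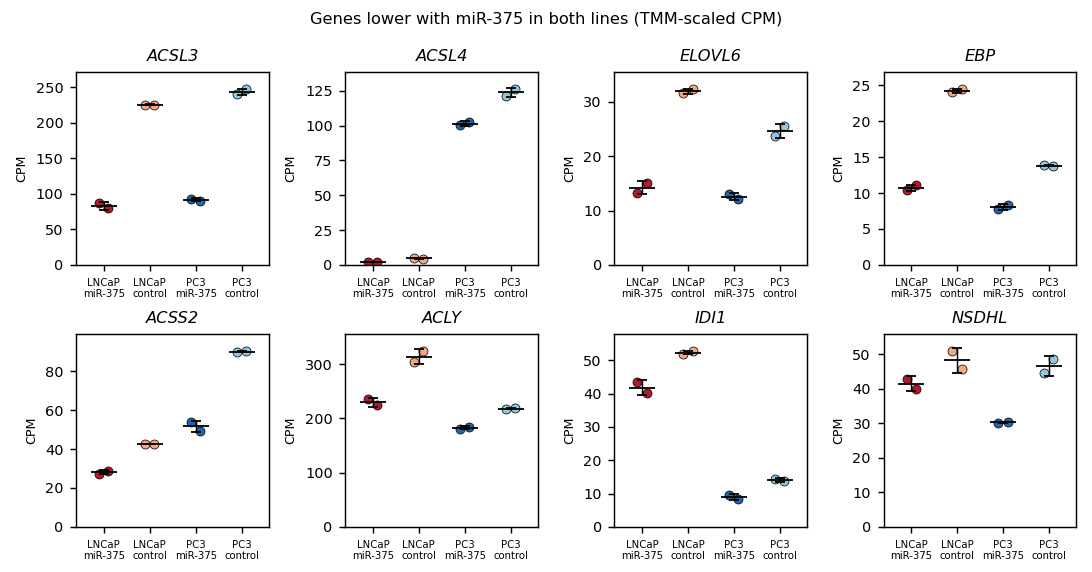
CPM (TMM-scaled) of 8 genes called lower with miR-375 in both lines, in each of the 4 groups. Points are single libraries, horizontal marks the mean and bars ± SD (n = 2). The miR-375 libraries lie below the controls of their line in every panel. On the log2 scale the fall is largest in ACSL3, then in ACSL4, ELOVL6 and EBP in LNCaP and in ELOVL6 and ACSS2 in PC3.

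In the sterol pathway 5 of 18 genes rose and 5 fell in LNCaP, and 4 rose and 7 fell in PC3. At its entry, ACAT2, the thiolase that joins acetyl-CoA units, fell in PC3 (-0.49 ± 0.09, adjusted p = 3.52e-05). Its small fall in LNCaP (-0.22 ± 0.08) lost its call under 9 of 16 alternatives (adjusted p up to 0.406). ACAT2 shares 9.23% of its exon bases with TCP1, a far more abundant gene on the other strand, so its counts are uncertain. Larger parts are shared on that strand with SOD2-OT1 (33.9%) and SOD2 (26.5%), which had 76 and 14 counts over all libraries. FDPS shares 18.6% of its exon bases with RUSC1-AS1 (489 counts) and IDI1 14.8% with IDI2-AS1 (65 counts), also on opposite strands. HMGCS1, which makes HMG-CoA, was not called in either line. Mevalonate kinase, MVK, stood at 30.4 and 29.3 CPM in LNCaP with miR-375, against 22.5 and 18.9 in controls, and at 20.4 and 19.9 CPM in PC3 with miR-375, against 24.5 and 24.4 in controls. It rose in LNCaP (0.53 ± 0.09, adjusted p = 1.36e-05) and fell in PC3 (-0.28 ± 0.09, 0.0112), where the call ended with total-count scaling and without the second miR-375 library (adjusted p up to 0.0684). MVD, the mevalonate diphosphate decarboxylase, was at 21.8 and 25.5 CPM in LNCaP with miR-375 and 19.7 and 18.2 in controls. In PC3 it was at 27.0 and 26.6 CPM with miR-375 and 29.03 and 31.9 in controls. It rose in LNCaP (0.32 ± 0.09), a call that ended without the second miR-375 library (adjusted p = 0.0840), and was not called in PC3 (-0.18 ± 0.09). PMVK, the kinase between MVK and MVD, rose slightly in LNCaP (0.18 ± 0.06) and was not called in PC3 (-0.05 ± 0.06). IDI1, the isomerase that makes the allylic isoprenoid unit, fell in both lines. It was at 43.4 and 40.1 CPM in LNCaP with miR-375 and 51.9 and 52.6 in controls, and at 9.53 and 8.42 CPM in PC3 with miR-375 and 14.4 and 13.7 in controls. Its change was -0.32 ± 0.08 in LNCaP and -0.65 ± 0.10 in PC3 (adjusted p = 0.00103 and 7.10e-07), and the LNCaP call ended without the second control or the second miR-375 library (adjusted p up to 0.107). FDPS, which makes farnesyl diphosphate, fell by 0.18 in PC3, a call that ended with total-count scaling and without any of 3 PC3 libraries (adjusted p up to 0.208).

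From squalene onwards few of the early steps were called. FDFT1 (squalene synthase), SQLE (squalene epoxidase), CYP51A1 (lanosterol demethylase) and HSD17B7 (a sterol ketoreductase) were called in neither line. CYP51A1 shares 79.4% of its exon bases in GENCODE 29 with AC000120.2, a gene on the same strand that had 0 counts, so its counts are uncertain. LSS, lanosterol synthase, fell by 0.16 in PC3, a call that ended with total-count scaling and without the first control or the second miR-375 library (adjusted p up to 0.251). EBP, the sterol isomerase, fell to 10.4 and 11.05 CPM in LNCaP with miR-375, against 24.0 and 24.4 in controls, and to 7.72 and 8.40 CPM in PC3 with miR-375, against 13.9 and 13.7 in controls. The change was -1.17 ± 0.11 in LNCaP and -0.78 ± 0.12 in PC3 (adjusted p = 6.45e-11 and 6.64e-07). EBP had no seed match in the 3′UTR searched. NSDHL, a dehydrogenase of the demethylation steps, was at 30.1 and 30.4 CPM in PC3 with miR-375 and 44.5 and 48.7 in controls, a fall of 0.62 (adjusted p = 2.55e-09). In LNCaP it was at 43.0 and 39.9 CPM with miR-375 and 50.8 and 45.6 in controls, and that smaller fall (-0.22 ± 0.07) lost its call under 6 of 16 alternatives (adjusted p up to 0.527).

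Reductase genes had the largest rises of the sterol pathway in PC3. TM7SF2, a sterol C14-reductase, stood at 83.9 and 84.1 CPM in PC3 with miR-375, against 46.9 and 45.8 in controls, and at 151 and 158 CPM in LNCaP with miR-375, against 136 and 135 in controls. It rose in both lines, by 0.86 in PC3 and 0.19 in LNCaP on the log2 scale (adjusted p = 2.39e-17 and 6.66e-04). DHCR7, which makes cholesterol from 7-dehydrocholesterol, was at 117 and 121 CPM in PC3 with miR-375 and 80.5 and 80.1 in controls, a rise of 0.57 ± 0.04 (adjusted p = 8.39e-14). In LNCaP DHCR7 was at 161 and 165 CPM with miR-375 and 168 and 164 in controls, and the libraries of the groups overlapped. SC5D, the desaturase just before DHCR7, rose modestly in both lines (0.31 ± 0.05 in LNCaP and 0.22 ± 0.05 in PC3). MSMO1, which oxidises the methyl groups at carbon 4, was at 44.6 and 40.1 CPM in LNCaP with miR-375 and 55.7 and 53.5 in controls, and at 38.1 and 39.3 CPM in PC3 with miR-375 and 34.2 and 32.7 in controls. It fell in LNCaP (-0.37 ± 0.07, adjusted p = 3.52e-05) and rose in PC3 (0.21 ± 0.07, 0.0115), and the rise was not called with DESeq2 or without the second PC3 control or miR-375 library (adjusted p up to 0.0967).

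Among the genes that control the pathway, SREBF1, which encodes the SREBP that favours fatty acid genes, stood at 178 and 192 CPM in LNCaP with miR-375, against 229 and 225 in controls, and at 62.5 and 66.4 CPM in PC3 with miR-375, against 57.1 and 56.2 in controls. It fell in LNCaP (-0.29 ± 0.04, adjusted p = 7.20e-07) and rose in PC3 (0.19 ± 0.05, 0.00179), the same directions as FASN, FADS1 and MSMO1. The PC3 call ended without the second miR-375 library (adjusted p = 0.0636). SREBF1 shares 6.92% of its exon bases with RAI1 on the other strand. Other fatty acid genes did not share the directions of SREBF1. ACLY, ACSS2 and ELOVL6 fell in both lines, and SCD and FADS2 rose in PC3 without a call in LNCaP in the main fit. A part of SREBF1 in any of these changes was not tested. SREBF2, which encodes the SREBP that favours sterol genes, was not called in LNCaP, and its rise of 0.12 ± 0.05 in PC3 lost its call under 13 of 16 alternatives (adjusted p up to 0.280). SCAP was called in neither line in the main fit, but it was called higher in LNCaP with DESeq2's size factors (log2 fold change 0.15). INSIG1, itself an SREBP target, was at 22.6 and 24.5 CPM in PC3 with miR-375 and 19.5 and 18.1 in controls, a rise of 0.33 ± 0.09 (adjusted p = 0.00325) that ended without the second miR-375 library (0.0559). In LNCaP its levels overlapped. STARD4, a carrier of sterol between membranes, was at 5.12 and 4.85 CPM in LNCaP with miR-375 and 7.19 and 7.28 in controls, a fall of 0.54 (adjusted p = 3.81e-04). In PC3 it was at 46.8 and 46.7 CPM with miR-375 and 44.6 and 45.8 in controls, and was not called.

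The response differed between the lines for 19 of the 38 genes when the difference itself was tested (LNCaP effect minus PC3 effect), against 26.5% of all tested genes and 42% of those with a mean of at least 5 CPM. The difference was negative for 11 (15.6% of all tested genes) and positive for 8 (10.9%). Of the tested genes with a mean of at least 5 CPM, 24.4% had a negative and 17.6% a positive difference. The split of the members turned to 10 negative and 11 positive with DESeq2's size factors. That of all tested genes went from 3286 negative and 2303 positive to 2740 and 2735. Of the 38 genes 18 were called in both lines, against 21.9% of all tested genes, 12 of them in the same direction (17.6%) and 6 in opposite directions (4.3%). The 10 genes lower in both (10.5% of all tested genes) were ACAT2, IDI1, NSDHL, EBP, ACLY, ACSS2, ME1, ELOVL6, ACSL3 and ACSL4, and the 2 higher in both (7.1%) were TM7SF2 and SC5D. The 4 lower in LNCaP and higher in PC3 (2.57%) were FASN, FADS1, SREBF1 and MSMO1, and the 2 higher in LNCaP and lower in PC3 (1.73%) were MVK and ACSL1. The shares for calls in both lines are over all tested genes, low ones included, and none was computed at 5 CPM or more. Without the second PC3 miR-375 library only 3 opposite calls were made in place of 6. The largest negative differences were those of FADS1 (-1.14 ± 0.06), FASN (-1.05 ± 0.05), ACSL4 (-1.05 ± 0.15) and SCD (-0.86 ± 0.05), and the largest positive one that of MVK (0.81 ± 0.13). Their adjusted p ranged from 8.63e-18 for FASN to 5.59e-06 for MVK. Summed over the 2 genes of fatty acid synthesis, levels were 849 and 931 CPM in LNCaP with miR-375, against 1177 and 1224 in controls, and 322 and 327 CPM in PC3 with miR-375, against 244 and 249.2 in controls. The 18 sterol genes together were near level in LNCaP, at 1118 and 1118 CPM with miR-375 and 1112 and 1092 in controls, and were at 754 and 755 CPM with miR-375 and 720 and 718 in controls of PC3.

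Between the control groups the lines differed in nearly every lipid gene, as in most genes. Of the 38, 23 were higher and 12 lower in LNCaP than in PC3, against 41.2% and 39.2% of all tested genes (80.4% in either direction). These are the same control libraries as in the comparisons above. FASN stood at 945 and 988 CPM in LNCaP controls and 170.3 and 173 in PC3 controls, a log2 difference of 2.49 ± 0.04 (adjusted p = 7.19e-36). ACSL1 (2.98 ± 0.06), FDFT1 (2.48 ± 0.06), SREBF1 (2.00 ± 0.05), IDI1 (1.90 ± 0.09) and ACACA (1.65 ± 0.05) were also higher in LNCaP. ACSL4, at 4.96 and 4.58 CPM in LNCaP controls and 122 and 126 in PC3 controls, was the most lopsided towards PC3 (-4.70 ± 0.08). STARD4 (-2.64 ± 0.09), ACSS2 (-1.08 ± 0.06), SQLE (-1.06 ± 0.06) and FADS1 (-1.01 ± 0.04) were also lower in LNCaP. Per kilobase of exon (GENCODE 29), the LNCaP controls were led by ELOVL5 at 136, FASN at 103 and SCD at 86.3 CPM per kilobase, and the PC3 controls by ELOVL5 at 60.5, SCD at 48.8 and ACLY at 41.9. ACSL5 was lowest in both, at 0.0759 in LNCaP and 0.225 in PC3. Exon lengths came from an annotation that may not be the one used for counting.

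**Figure D4:**
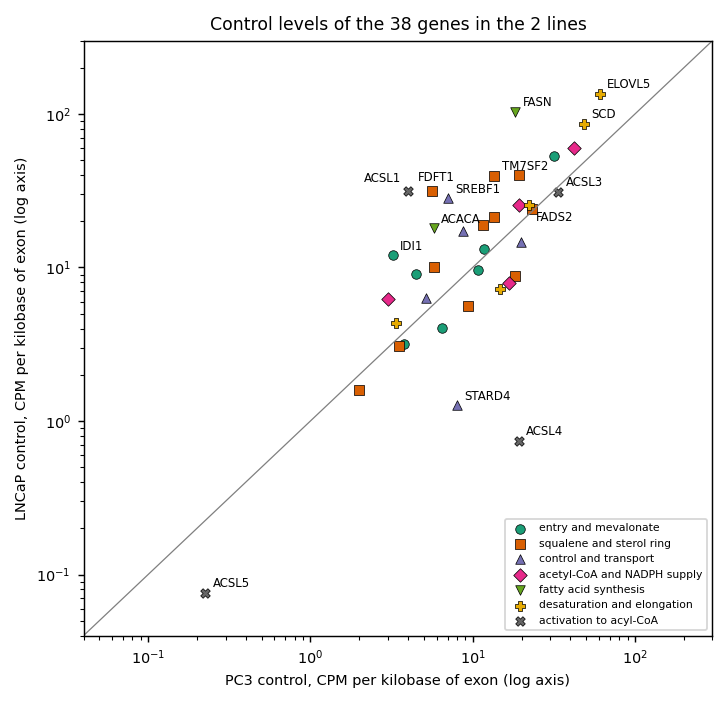
Mean CPM per kilobase of exon of the 38 genes in the LNCaP controls (vertical, log axis) and the PC3 controls (horizontal, log axis), n = 2 libraries each, with symbols by role and the line of equal level. FASN, ACSL1 and FDFT1 lie above the line, ACSL4 and STARD4 below it.

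Of 80 related genes outside the 38, covering the isoprenoid branch, sterol trafficking and efflux, fatty acid transport, elongation, glyceride synthesis and oxidation, 77 were tested. In LNCaP 16 rose (20.8% of those tested, against 13.9% of all tested genes) and 14 fell (18.2%, against 18.7%). In PC3 31 rose (40.3%, against 22.2%) and 15 fell (19.5%, against 20.8%). Of the 68 with a mean of at least 5 CPM, 22.1% rose and 20.6% fell in LNCaP. Among all tested genes at that level 20.5% rose and 31.6% fell. In PC3 42.6% of the 68 rose and 22.1% fell, against 29.3% and 33.2%. With total-count scaling 36 rose in LNCaP, where all tested genes went from 2927 higher and 3933 lower to 4719 and 2613. In PC3 7 of the 11 tested genes of fatty acid activation and transport rose and 0 fell, and 6 of 10 oxidation genes rose and 1 fell. Of all tested genes 22.2% rose and 20.8% fell there. In LNCaP 5 of 10 oxidation genes rose and 1 fell, and 3 of the 11 activation and transport genes rose and 1 fell. The shares of all tested genes were 13.9% and 18.7%. These small groups were not tested as sets. FABP4, a fatty acid binding protein typical of adipocytes, was at 54.8 and 50.1 CPM in PC3 with miR-375 and 15.5 and 16.2 in controls (log2 fold change 1.73 ± 0.10), and had 0 counts in LNCaP. FABP5, its epithelial relative, was at 244 and 238 CPM in PC3 with miR-375 and 95.3 and 103 in controls (1.28 ± 0.05). SCARB1, the receptor that takes up cholesterol from high-density lipoprotein, was at 128 and 129 CPM in LNCaP with miR-375 and 165 and 160.2 in controls. In PC3 SCARB1 was at 97.5 and 102 CPM with miR-375 and 58.9 and 58.1 in controls, so the order of the groups was opposite in the lines (difference -1.11 ± 0.06, adjusted p = 3.00e-16). SLC27A2, a fatty acid transporter, was at 1.95 and 1.71 CPM in PC3 with miR-375 and 0.150 and 0.260 in controls, and at 33.7 and 30.4 CPM with miR-375 and 33.8 and 32.0 in controls of LNCaP (difference -3.19 ± 0.34). The responses of FABP5 (-2.76 ± 0.42), ACSM3 (-1.19 ± 0.23), an acyl-CoA synthetase for medium chains, and ELOVL7 (-1.72 ± 0.53), an elongase, also differed between the lines, although ELOVL7 reached at most 0.286 CPM in PC3 and FABP5 at most 0.773 CPM in LNCaP. Between the controls 41 related genes were higher (53.2%, against 41.2% of all tested genes) and 32 lower (41.6%, against 39.2%) in LNCaP than in PC3, with ELOVL7, SLC27A2, FAXDC2 (a sterol hydroxylase family member) and ACSM3 among the largest differences on the higher side and FABP4, FABP5, CYP27A1 (a sterol hydroxylase of mitochondria) and ELOVL4 (an elongase of very long chains) on the lower.

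SREBPs act at promoters, so the 250 bases before each RefSeq gene start (GRCh38.p14) were searched on both strands for 4 motifs. Windows were given for 34 of the 38 genes, ACAT2, FDFT1, SQLE and FASN having none. The sterol regulatory element, searched as TCACNCCAC, was present in 2 of the 34 genes (5.88%), SREBF2 and, at 1 of its starts, ACSL1, against 1.09% of 27305 genes with a window. CCAAT, the letters bound by NF-Y, was present in 23 (67.6%, against 37% of genes), the E-box CACGTG in 4 (11.8%, against 7.73%) and the GC box GGGCGG, bound by Sp1, in 31 (91.2%, against 46.2%). The motifs were counted separately and overlap was allowed. Forms of the sterol regulatory element other than TCACNCCAC were not searched, so a window without it may hold another form. The 27305 genes were not limited to tested or protein-coding genes, unlike those of the seed search. A gene counted if any of its windows held the motif, with 49 windows for the 34 genes and 35116 for the 27305. The 2 sets are thus not matched, and the shares are not a measure of what is particular to lipid genes. The window of SREBF2 (chr22:41832855-41833104, plus strand) is shown because it holds the element, and that of SCD (chr10:100346983-100347232, plus strand) because SCD rose by the most in PC3 among the desaturases. TCACNCCAC and CCAAT, on either strand, are in capitals.
SREBF2: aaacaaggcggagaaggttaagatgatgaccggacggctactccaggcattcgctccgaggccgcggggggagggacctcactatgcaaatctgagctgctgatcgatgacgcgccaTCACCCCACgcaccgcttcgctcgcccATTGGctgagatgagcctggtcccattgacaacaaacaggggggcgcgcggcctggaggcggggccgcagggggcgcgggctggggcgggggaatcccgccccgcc
SCD: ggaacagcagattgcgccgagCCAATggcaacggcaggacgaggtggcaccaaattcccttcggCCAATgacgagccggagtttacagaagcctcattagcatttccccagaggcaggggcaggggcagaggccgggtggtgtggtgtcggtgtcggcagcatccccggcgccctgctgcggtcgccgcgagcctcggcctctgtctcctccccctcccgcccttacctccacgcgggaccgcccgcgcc
In SREBF2 the element begins 133 bases before the start. These letters are a description of the windows and say nothing of binding in these cells.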

How the data were processed

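RNA was measured in 8 poly(A) libraries, dUTP-marked and read as paired ends per the labels' protocols. The values are whole-number counts per gene deposited by the authors in one table, not normalized. The submitters' processing notes name hg38 and, without roles, DESeq2, featureCounts, STAR 2.7.1a and fastp. Neither annotation nor strandedness of counting is stated, so overlapping and antisense genes are uncertain. Whether a count is a read or a pair is not stated, and from 68.1% to 70.3% of the counts between 1 and 20 per library were even. If mates were counted singly, fragments are fewer than counts. The table held 60625 lines, of which 3 broken ones (279 counts) were left out, and 23834 lines had 0 counts throughout. Column names matched sample titles, which gave groups and replicate numbers.

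Genes passing edgeR's filterByExpr (21066) entered one fit over all 8 libraries, which left 4 residual degrees of freedom (edgeR 4.0.16, glmQLFit robust, TMM factors from 0.957 to 1.06, R 4.3.3). The fit was tested on simulated counts. Contrasts were miR-375 against control in each line, their difference, and LNCaP against PC3 controls. SE is the log2 fold change divided by the square root of F. Replicates differed by more than sampling noise (chi-square divided by its degrees of freedom, 3.52 to 3.74), so none was treated as a duplicate. Library depth limits what can be called for low genes such as ACSL5.

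The 38 members and the other lists were chosen with earlier results of these data known. A member was given in every library where it was called in either line or in the difference with a log2 fold change of at least 0.5. Related genes were named where called with at least 1 and a mean of at least 5 CPM, at most 8 per comparison, and SREBF1 and INSIG1 were given in full after their values were seen. The alternatives were RLE factors, total-count scaling, no filter, DESeq2 1.42.0, limma-voom (limma 3.58.1), the replicate number as a block, each line alone, halved counts and each library left out in turn with the tested genes held fixed. Exon lengths and 3′UTRs came from GENCODE 29 (principal transcript, then longest coding sequence). A summed level of the LNCaP markers is not reported here.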

Additional observations from a re-analysis of the deposited data

Results flagged for a closer look

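The miR-375 effect differed between LNCaP and PC3, by a test of the difference itself, for 19 of the 38 genes. On the log2 scale the LNCaP effect minus the PC3 effect was -1.14 for FADS1, -1.05 for FASN, -1.05 for ACSL4, -0.86 for SCD, -0.666 for TM7SF2, -0.596 for DHCR7, -0.585 for STARD4, -0.579 for MSMO1, -0.539 for FADS2, -0.482 for SREBF1 and -0.195 for ACLY. It was 0.809 for MVK, 0.504 for MVD, 0.46 for ACSL1, 0.408 for NSDHL, 0.284 for LSS, 0.226 for PMVK, 0.222 for ME1 and 0.174 for SCAP. TM7SF2 rose and ACLY and ACSL4 fell in both lines, by unequal amounts, and NSDHL and ME1 fell in both. The differences of PMVK, LSS, SCAP, ACLY and ME1 lost their call under at least 1 alternative (adjusted p up to 0.3996). Groups of 2 libraries are too small to mark a single library as standing apart.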

How the results depend on the processing

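Of the called members, 16 of 21 in LNCaP, 17 of 27 in PC3, 14 of 19 for the difference and 30 of 35 between controls kept their call under every alternative run, and 0 reversed. Members without a call in the main fit gained one under some alternatives. With RLE factors LSS, SCAP and FADS2 were called higher in LNCaP, and IDI1, ACSS2 and ELOVL5 in the difference. With total-count scaling FDFT1 was also called higher in LNCaP, and SQLE and ACACA in PC3. With each line fitted alone HMGCS1, MVD, HSD17B7 and SCAP were called lower in PC3. With total-count scaling 10 members and 36 related genes rose in LNCaP, and 4719 of all tested genes, against 2927 in the main fit. For the difference, 13 members and 12 related genes were called higher without the filter on low counts, and 13 and 12 with halved counts. Over all tested genes 3097 and 3032 were then called higher, against 2303 in the main fit. The members' median log2 fold change moved in LNCaP to -0.0285 with RLE factors, 0.0539 with total-count scaling, -0.00144 without the filter, -0.0287 with DESeq2 and -0.0138 with halved counts. In PC3 it moved to -0.0618 with total-count scaling, -0.168 without the filter and -0.161 with the line fitted alone. For the difference it moved to 0.0622 with RLE factors, 0.0544 with total-count scaling, 0.104 without the filter, 0.0656 with DESeq2 and 0.0933 with halved counts, and between controls to 0.343 without the filter. Leaving out a library in turn gave medians from -0.0683 to -0.00424 in LNCaP, from -0.164 to -0.103 in PC3, from -0.0176 to 0.132 for the difference and from 0.345 to 0.433 between controls. It gave from 5 to 12 members higher for the difference, the 5 without the second PC3 miR-375 library, from 5 to 12 related genes higher and from 12 to 19 lower, and from 3 to 8 members called in opposite directions. The median of all tested genes shifted too, in LNCaP by 0.0390 with RLE factors and 0.1215 with total-count scaling. In PC3 it shifted by 0.0762 with total-count scaling, while without the filter in LNCaP it shifted by 0.0000. The cause of these moves was not tested. Replicate numbers gave no sign of pairing (correlations of deviations from -0.0403 to 0.0136). With 2 libraries per group a weak pairing could go unseen. With the replicate number as a block 6 members rose and 15 fell in LNCaP, and 10 rose and 16 fell in PC3. The difference was then called for 7 higher and 11 lower. The fit of each line alone gives no difference between lines. At this depth, small changes of low genes were not detectable, and the larger ones of ACSL5 (0.80 ± 0.54 in LNCaP, 0.76 ± 0.43 in PC3) were not called.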
